A study of Mus musculus with 4 samples.

Results

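The enteroendocrine hormone genes followed here were Ghrl, Sst, Sct, Cck, Gip, Gcg, Nts, Pyy, Chga and Neurod1, taken by symbol, and all 10 of them were among the 18193 genes that the array names singly. They are represented by 11 of 45037 probe sets, 1 for each gene and 2 for Neurod1. RNA came from C57BL/6 mice kept in gnotobiotic isolators. The 2 colonized groups were germ-free (GF) mice monocolonized with 100000000 bacteria of Lactobacillus NK318.1 and sampled 2 weeks later, and the other 2 groups were GF mice without bacteria. From each, intestinal epithelial cells and Peyer's patch cells, the lymphoid follicles of the small intestine, were collected as pools. Each of these 4 pools was hybridized to 1 Affymetrix 3′ expression array, so no difference has a replicate and no test was possible. The labels give no age. The study's methods give one for mice taken from an isolator for oral transfer of bacteria, without tying it to these arrays. The sample labels name no stretch of intestine for the epithelial cells, whereas a legend of the study calls them ileal.

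Enteroendocrine cells are scattered hormone-secreting cells of the gut epithelium. They arise from crypt progenitors under the transcription factor Neurog3 and then Neurod1. They store peptide hormones in granules together with chromogranin A (Chga), and release many of them into the blood after a meal. Which hormone a cell makes depends on where along the gut it lies. Ghrelin (Ghrl) is made mainly in the stomach. Gip, cholecystokinin (Cck) and secretin (Sct) are made mainly in the duodenum and jejunum. Neurotensin (Nts), proglucagon (Gcg, the source of GLP-1) and peptide YY (Pyy) are made mainly in the ileum and colon. Somatostatin (Sst) is made throughout, and also in the pancreatic islet, as is Gcg.

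In epithelial cells, 2 of the 10 genes had at least 2-fold higher signal in colonized than in GF mice, Gip (6.78-fold) and Ghrl (5.92-fold), and none had 2-fold lower signal. Across all 13874 genes measured in epithelial cells, 2.63% were at least 2-fold higher and 1.54% at least 2-fold lower. Both genes were also past 4-fold, as were 0.469% of all genes, and counted from the highest ratio they ranked 38 and 45 of all. The ileal and colonic hormones Gcg, Nts and Pyy had ratios between 0.817-fold and 1.02-fold. In Peyer's patch, none of the 4 genes that reached the floor on either array differed 2-fold, against 0.149% of 12736 genes that were higher and 0.573% that were lower. In pooled tissue, fewer cells of a type and less RNA per cell cannot be told apart. Values here are MAS5 intensities, and signals under a floor of 15.5, the 40th percentile of intensity, were raised to it before a ratio was taken.

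Across the epithelial arrays all 10 genes lay above the floor, at 111 to 2598 in colonized mice and at 68.4 to 509.7 in GF mice. The same genes lay in Peyer's patch at 4.89 to 39.2 in colonized mice and at 4.50 to 39.2 in GF mice. Only Sst, Sct and Pyy were above the floor there in colonized mice, and these and Gip in GF mice. The signal in epithelial cells over that in Peyer's patch, with floored values, was 5.49-fold to 168-fold in colonized mice and 4.41-fold to 32.9-fold in GF mice. For the genes under the floor in Peyer's patch these are lower bounds. They depend on the floor, and with it at the 60th percentile they ran from 2.98-fold to 69.7-fold in colonized and from 1.83-fold to 13.7-fold in GF mice.

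**Figure D1:**
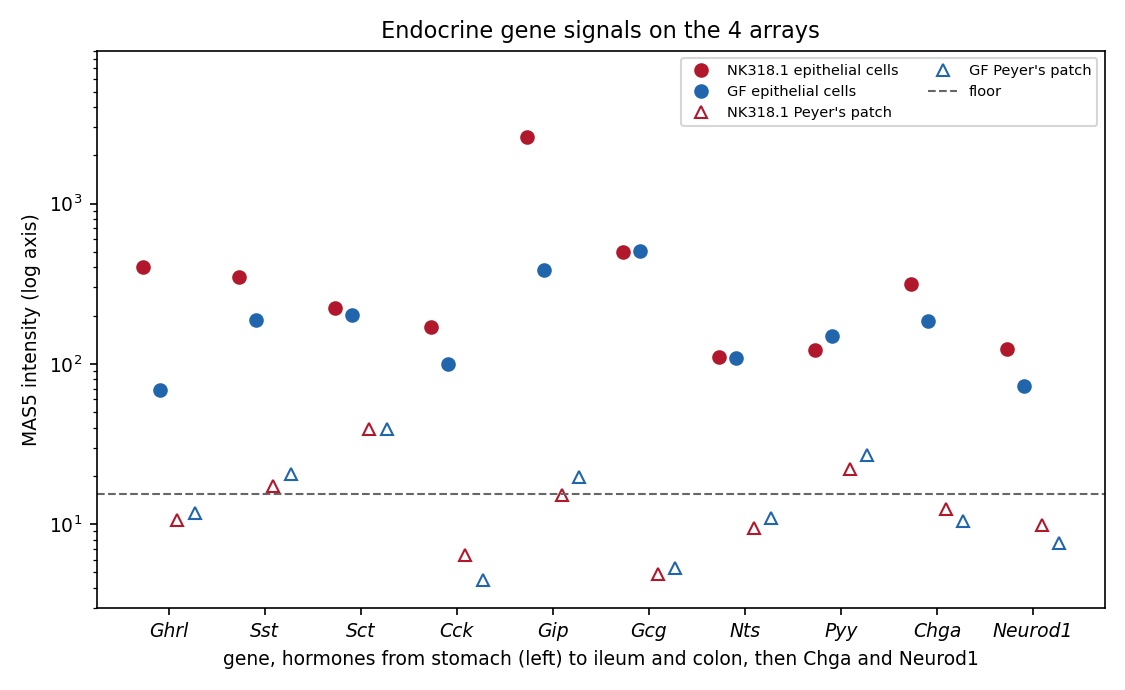
MAS5 intensity (log axis) of the 10 genes on the 4 arrays, with hormones ordered from the stomach on the left to the ileum and colon, followed by Chga and Neurod1 (the probe set that represents it). Circles are epithelial cells and triangles Peyer's patch, red colonized (NK318.1) and blue GF, and the dashed line is the floor of 15.5. Every circle lies above its triangles, and the circles stand apart most for Ghrl and Gip.

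The promoters of 4 genes are shown, those of Gip and Ghrl, the 2 genes past 2-fold, and of Sst and Gcg for comparison, since these 2 are shared with the islet and lay under 2-fold. Each runs from 250 bases before to 50 bases after an annotated transcription start (RefSeq, GRCm38.p6), 5′ to 3′ on the gene's own strand. Capitals mark matches on either strand to CAGATG, an E-box that Neurod1-type factors can bind, to GATAA, the core bound by GATA factors, to TATAAA, the TATA box, and to TGACGTCA, the cyclic AMP response element. No matches overlapped.
Gip, chr11:96024295-96024594, + strand: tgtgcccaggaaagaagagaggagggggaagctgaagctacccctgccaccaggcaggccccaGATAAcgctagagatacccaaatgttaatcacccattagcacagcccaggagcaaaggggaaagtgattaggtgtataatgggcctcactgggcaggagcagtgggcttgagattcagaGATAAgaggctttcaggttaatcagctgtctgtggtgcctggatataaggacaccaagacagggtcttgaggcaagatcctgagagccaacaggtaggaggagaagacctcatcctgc
Ghrl, chr6:113719862-113720161, − strand: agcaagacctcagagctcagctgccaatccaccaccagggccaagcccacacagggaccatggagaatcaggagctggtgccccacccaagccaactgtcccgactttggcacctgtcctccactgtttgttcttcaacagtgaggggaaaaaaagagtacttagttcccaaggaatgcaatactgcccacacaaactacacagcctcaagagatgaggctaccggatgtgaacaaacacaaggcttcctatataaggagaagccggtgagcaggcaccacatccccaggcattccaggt
Sst, chr16:23890795-23891094, − strand: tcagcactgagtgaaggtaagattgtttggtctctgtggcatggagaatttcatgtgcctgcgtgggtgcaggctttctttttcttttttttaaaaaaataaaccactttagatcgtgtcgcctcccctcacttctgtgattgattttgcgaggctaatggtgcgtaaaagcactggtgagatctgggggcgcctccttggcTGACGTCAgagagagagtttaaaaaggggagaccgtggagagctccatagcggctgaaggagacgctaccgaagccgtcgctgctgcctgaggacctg
Gcg, chr2:62483604-62483903, − strand: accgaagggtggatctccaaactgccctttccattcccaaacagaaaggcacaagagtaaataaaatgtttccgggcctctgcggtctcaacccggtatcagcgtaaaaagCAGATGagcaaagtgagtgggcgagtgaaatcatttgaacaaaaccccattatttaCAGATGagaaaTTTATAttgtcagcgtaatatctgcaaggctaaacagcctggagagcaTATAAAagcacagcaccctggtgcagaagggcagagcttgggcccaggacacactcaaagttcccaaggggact

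Gip had 2 GATAA matches, with the leftmost base at −187 and −68 from the transcription start, and Gcg had 2 of CAGATG, at −139 and −83, and 2 of TATAAA, at −72 and −24. Sst had TGACGTCA at −48. Ghrl, with 4 annotated starts of which 1 was searched, had none of these letters in its window. Among the other genes, Sct had CAGATG at −242 and TATAAA at −28, Cck CAGATG at −30 and GATAA at −188, Nts GATAA at −130 and Chga TATAAA at 6, after the start. Pyy, with 2 annotated starts of which 1 was searched, and Neurod1 had none. Of 27025 promoters of this length, 1 for each gene, CAGATG was found in 17.2%, GATAA in 25.8%, TATAAA in 14.2% and TGACGTCA in 1.88%. Of the 10 endocrine genes, 3 held CAGATG, 3 GATAA, 3 TATAAA and 1 TGACGTCA. A match describes letters and not binding. Of the genes past 2-fold, Gip shared GATAA with Cck and Nts, which lay under 2-fold, and Ghrl held no match in the window searched.

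Ghrl (chr6:113716119-113719911, GRCm38.p6), whose product stimulates appetite and growth hormone release, had a signal of 405 in colonized and 68.4 in GF epithelial cells, and of 10.6 and 11.7 in colonized and GF Peyer's patch. The log2 ratio in epithelial cells was 2.57. Only the colonized epithelial array was high, and both Peyer's patch arrays were under the floor, so no ratio is given there. Mboat4, the enzyme that acylates ghrelin into its active form and a gene outside the rule for named genes, had 23.0 in colonized and 17.4 in GF epithelial cells, a log2 ratio of 0.41, with both signals close to the floor.

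Sst (chr16:23889573-23891342), which encodes an inhibitor of the release of most other gut hormones, had 349.7 in colonized and 189 in GF epithelial cells, a log2 ratio of 0.89. Its signals in Peyer's patch were 17.2 and 20.4 in colonized and GF mice, close to the floor, with a log2 ratio of −0.24.

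Of the duodenal and jejunal hormones, Gip stood furthest apart. Gip (chr11:96024532-96030831), a hormone that enhances insulin release after a meal, had 2598 in colonized and 383 in GF epithelial cells, a log2 ratio of 2.76. In Peyer's patch it had 15.2 in colonized and 19.6 in GF mice, so its signal there was at the background of the array. Cck (chr9:121489824-121495694), which contracts the gallbladder and stimulates pancreatic enzyme secretion, had 169 in colonized and 100.3 in GF epithelial cells, a log2 ratio of 0.75. Peyer's patch signals of 6.45 in colonized and 4.50 in GF mice were under the floor. Sct (chr7:141278329-141279174), which stimulates bicarbonate secretion from the pancreas, had 224 in colonized and 203 in GF epithelial cells, a log2 ratio of 0.14. The hormones of this stretch therefore did not share 1 ratio. The Gip ratio was 4.02 times the Cck ratio and 6.15 times the Sct ratio within the same arrays.

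Gcg (chr2:62474530-62483653) had 496 in colonized and 509.7 in GF epithelial cells, a log2 ratio of −0.04. Nts (chr10:102481756-102490418), whose product acts on gut motility and fat absorption, had 111 in colonized and 109 in GF epithelial cells, a log2 ratio of 0.03. Pyy (chr11:102106676-102107832), whose product slows gastric emptying and lowers food intake, had 122 in colonized and 149 in GF epithelial cells, a log2 ratio of −0.29. The 2 arrays thus lay close together for each of the 3 distal hormones. The sign of such small ratios turned with the scaling of the arrays. Nts had −0.02 after quantile normalization, and relative to the median ratio of epithelial markers Gcg had 0.26 and Pyy 0.01. Gcg had 4.89 in colonized and 5.31 in GF Peyer's patch and Nts 9.50 and 10.9, all under the floor. Pyy had 22.2 in colonized and 26.9 in GF Peyer's patch, a log2 ratio of −0.28 from signals near the floor.

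Chga (chr12:102554941-102565027) had 314 in colonized and 184 in GF epithelial cells, a log2 ratio of 0.77, and lay under the floor in Peyer's patch with 12.4 in colonized and 10.4 in GF mice. As Chga is a granule protein of many endocrine cell types, the hormones were also set against it. The Gip ratio was 3.98 times and the Ghrl ratio 3.47 times the Chga ratio, those of Sst and Cck were 1.09 and 0.990 times it, and those of Sct, Nts, Gcg and Pyy were 0.647, 0.597, 0.571 and 0.479 times it. Neurod1 (chr2:79452637-79456636), a factor of late endocrine differentiation, gave different ratios by its 2 probe sets. The brighter one had 124 in colonized and 73.2 in GF epithelial cells, a log2 ratio of 0.77, and the other had 68.6 and 75.4, a log2 ratio of −0.14. The Neurod1 ratio is therefore uncertain in its direction.

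**Figure D2:**
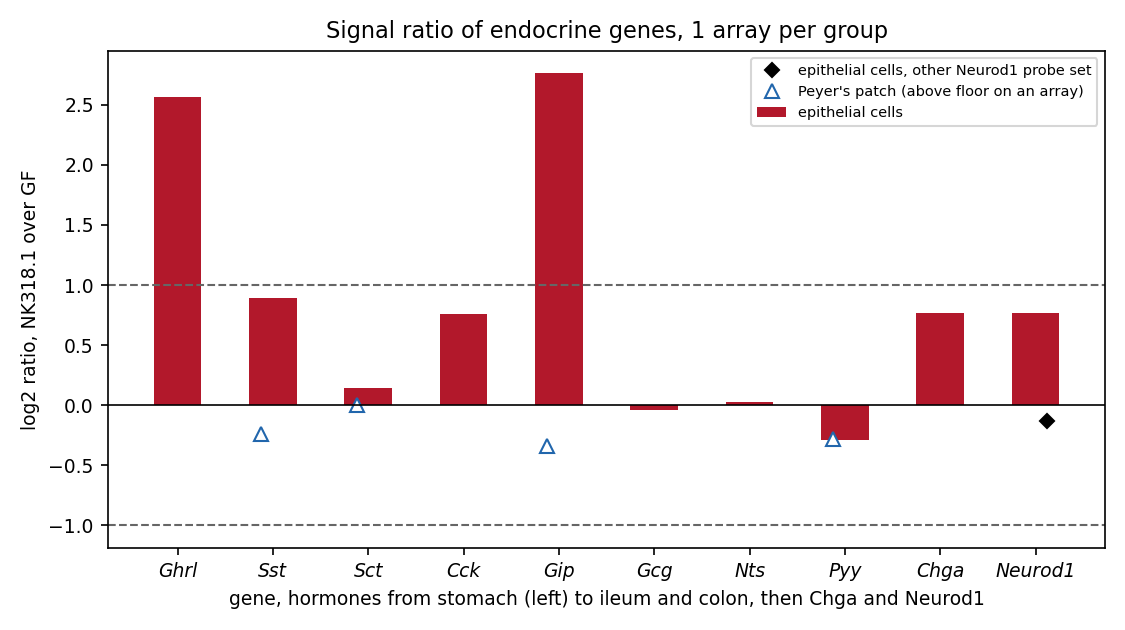
Log2 signal ratio, colonized (NK318.1) over GF, of the 10 genes in gut order, from 1 array per group. Bars are epithelial cells, the diamond is the second Neurod1 probe set, triangles are Peyer's patch for the 4 genes above the floor on an array, and dashed lines mark 2-fold. The Gip triangle is a bound, since 1 signal was raised to the floor. Ghrl (2.57) and Gip (2.76) pass 2-fold, and Gcg, Nts and Pyy lie between −0.29 and 0.03.

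Ordered by place, the 4 hormones made mainly in the stomach and upper small intestine (Ghrl, Sct, Cck and Gip) had ratios above 0, with a median log2 ratio of 1.66 and a range of 0.14 to 2.76. Sst, made along the whole gut, is left out of this group, and with it the median was 0.89. The 3 distal hormones had a median of −0.04. For all 10 genes the median was 0.76, with 8 above 0 (0.45 and 7 with Neurod1 taken by its other probe set), whereas the median over all measured genes was 0.02 with 52.4% above 0. At a limit of 1.5-fold, 6 of the 10 genes were higher, or 5 with the other Neurod1 probe set, against 9.31% of all measured genes. With the second Neurod1 probe set averaged in, the median of the 10 genes was 0.53. Relative to the median ratio of 13 epithelial markers (−0.30), a scaling chosen after the data were seen, Sst, Cck, Chga and Neurod1 also passed 2-fold. The count was then 6 of 10, or 5 with the other Neurod1 probe set, against 6.24% of all genes.

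**Figure D3:**
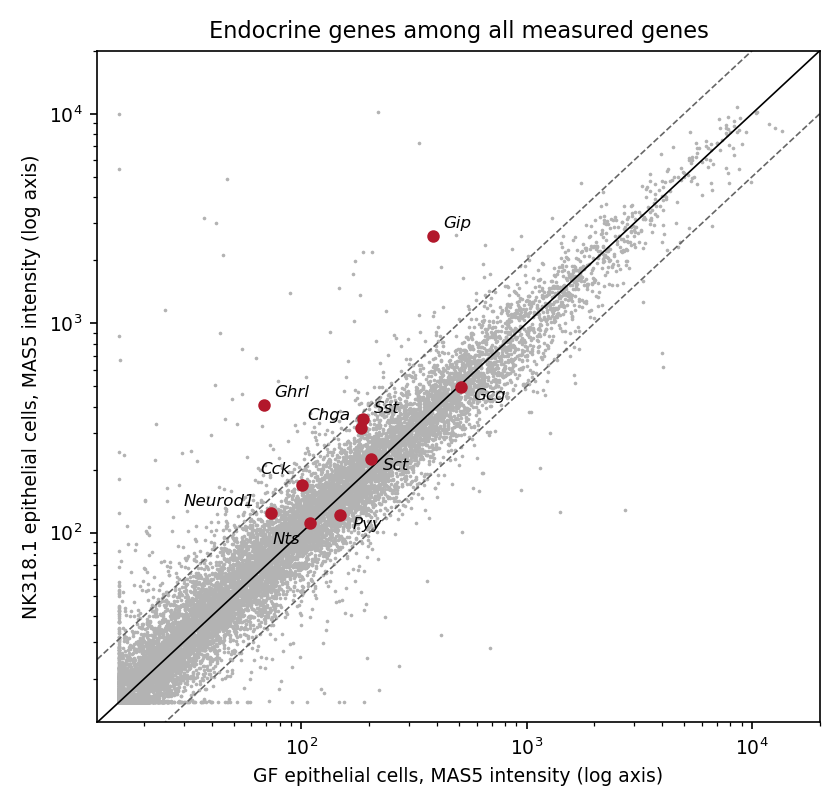
MAS5 intensity of each measured gene in colonized (NK318.1, y axis) against GF (x axis) epithelial cells, both on log axes and with signals under 15.5 raised to it, 1 point per gene and 1 array per group. Red points are the 10 endocrine genes, the solid line marks equal signal and dashed lines 2-fold. Gip and Ghrl lie above the upper dashed line and the other 8 genes between the lines.

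Markers of other tissues differed between the same epithelial arrays. Of 14 stomach markers measured in epithelial cells, 12 had at least 2-fold higher signal in colonized mice, and their signal summed over the 15 on the array, as in the sums that follow, was 36470 in colonized and 547 in GF mice. Gkn2 and Gkn1, secreted proteins of the gastric surface epithelium, had 9949 and 5430 in colonized and 12.5 and 11.5 in GF epithelial cells. Tff2, a trefoil peptide of gastric gland cells, had 3162 in colonized and 37.1 in GF epithelial cells, and Gkn3 had 3001 and 42.0. Sox2 was under the floor on both arrays. Of 10 islet markers on the array 5 were measured, with log2 ratios of −0.30 to 4.37. The 3 at least 2-fold higher were Ins2, Iapp and Pdx1, although the other measured probe set of Pdx1 gave 0.07. The summed signal of the islet markers was 1674 in colonized and 364 in GF epithelial cells. Ins2, an insulin gene, had 900.1 in colonized and 43.4 in GF epithelial cells and Iapp, the amylin gene, 348 and 45.6. The islet hormone gene Ppy was under the floor at 13.9 in colonized and 10.6 in GF epithelial cells. The islet markers Nkx6-1, Ucn3, G6pc2 and Slc30a8 were also under the floor on both epithelial arrays. Gcg, which islet α cells express, did not differ as given above. Ins1 was not analysed here.

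Markers of pancreatic acinar cells, mainly digestive enzyme genes, were at least 2-fold higher in 11 of 14 cases. Their summed signals were 18082 in colonized and 5515 in GF epithelial cells, and the highest ratios were those of 4 enzyme genes (Cel, log2 ratio 3.79; Cpa1, 3.54; Cpb1, 3.52; Ctrl, 3.41). Of the 14 markers 13 lay above 0, and the lowest ratio was −0.74. Of 8 ileal markers 6 were at least 2-fold lower, with sums of 3648 in colonized and 10730.1 in GF epithelial cells. Fabp6, the ileal bile acid-binding protein, had 718 in colonized and 4002 in GF epithelial cells, and Fgf15, the ileal hormone that restrains bile acid synthesis, had 19.9 and 58.9. Cubn (−1.55) and Slc51a (−1.40) were also lower. Of 8 proximal intestine markers 1, the iron exporter Slc40a1 (1.20), was 2-fold higher, and their median was −0.17. Of 6 colon markers Car1 alone was 2-fold apart (4.45). The part of stomach, pancreas or a different stretch of gut in the hormone ratios was not tested.

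None of 13 epithelial markers differed 2-fold. Epcam had 3623 in colonized and 3926 in GF epithelial cells, and the lowest ratios were those of Vil1 (−0.65) and Krt20 (−0.59). Of 15 leukocyte markers 10 were at least 2-fold lower, with sums of 760.2 in colonized and 4973 in GF epithelial cells (Gzmb, −4.62; Gzma, −4.41; Cd3g, −3.62 or lower; Ptprc, −3.55). The highest ratio among the 15 was 0.24, and it was the only 1 above 0. Enteric neurons also express several of these peptides. Of 8 measured neuron and glia markers none was 2-fold apart, with S100b (0.66) and Gal (0.33) highest and sums of 361 in colonized and 322 in GF epithelial cells. In Peyer's patch, Ptprc had 5235 in colonized and 5152 in GF mice. Of the 13 epithelial markers 7 were measured there and none was 2-fold apart, with sums of 285 in colonized and 287 in GF mice. Epcam had 57.0 in colonized and 75.9 in GF Peyer's patch, while Vil1, Krt8 and Fabp2 were among those under the floor on both arrays. The 3′ to 5′ ratio of β-actin, a sign of RNA breakage, was 4.10 in colonized and 2.73 in GF epithelial cells and 1.74 and 1.60 in colonized and GF Peyer's patch. Xist had 4889 in colonized and 46.7 in GF epithelial cells, while the Y-linked gene Eif2s3y had 2.41 and 147, and Peyer's patch had the same pattern. Colonization and the sex of the pools cannot be told apart.

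Other genes of the endocrine programme were taken from lists, whose members are named where they differed 2-fold. Of 7 further hormone and amine genes measured in epithelial cells 2 were higher and 1 lower. Gast, the gastrin gene of the gastric antrum, had 669 in colonized and 15.7 in GF epithelial cells, a log2 ratio of 5.41. Tph1, the enzyme of serotonin synthesis in enterochromaffin cells, had 73.7 and 33.3 (1.15). Insl5, a hormone of colonic L cells, had 64.2 in colonized and 162 in GF epithelial cells (−1.33). Among these 7 genes, Gast had the highest ratio and Insl5 the lowest. The colon markers went both ways, with 3 of 6 above 0.

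Of 15 measured endocrine transcription factors 4 were at least 2-fold higher and none lower, with a median log2 ratio of 0.15. Pdx1, a factor of duodenum, antrum and pancreas, had 143 in colonized and 20.2 in GF epithelial cells (2.83), although its other probe set gave 0.07. Neurog3, which starts endocrine differentiation, had 252 in colonized and 74.9 in GF epithelial cells (1.75), and Nkx2-2, which acts after it, had 47.4 and 16.0 (1.57). Nkx6-3, a factor of gastric antral endocrine cells, had 37.5 in colonized mice and was under the floor in GF mice, a difference of at least 1.27 on the log2 scale. Factors shared by many endocrine cells, such as Pax4, Pax6, Isl1 and Insm1, chosen after their values were seen, had ratios of 0.02 to 0.36 by the probe sets that represent them. The other probe sets of Pax6, Isl1 and Insm1 gave higher ratios, of 0.74, 0.93 and 0.51.

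Among 14 measured genes of hormone processing and secretory granules 1 was 2-fold higher, and 11 lay above 0 with a median of 0.42. Cpe, a carboxypeptidase that trims prohormones, had 284 in colonized and 139 in GF epithelial cells (1.03), and −0.19 by its other probe set. Chgb, the granule partner of Chga, lay outside the rule for named genes and had 1877 in colonized and 986 in GF epithelial cells (0.93). None of 8 nutrient and bile acid sensors differed 2-fold, and their median was −0.07. The lowest were the fatty acid receptor Ffar4 (−0.50) and the cannabinoid receptor Cnr1 (−0.35 or lower). Of 10 measured receptors and peptidases 1 was lower, the peptidase gene Mme, with 221 in colonized and 455 in GF epithelial cells (−1.04, other probe set −0.30). Dpp4, which inactivates GLP-1 and Gip, was added after its value was seen and had 444 and 751 (−0.76), with −1.35 to 0.18 by its 3 other measured probe sets, so its direction is uncertain. The receptors of ghrelin, Gip and GLP-1 (Ghsr, Gipr and Glp1r) were under the floor in epithelial cells of both groups.

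**Figure D4:**
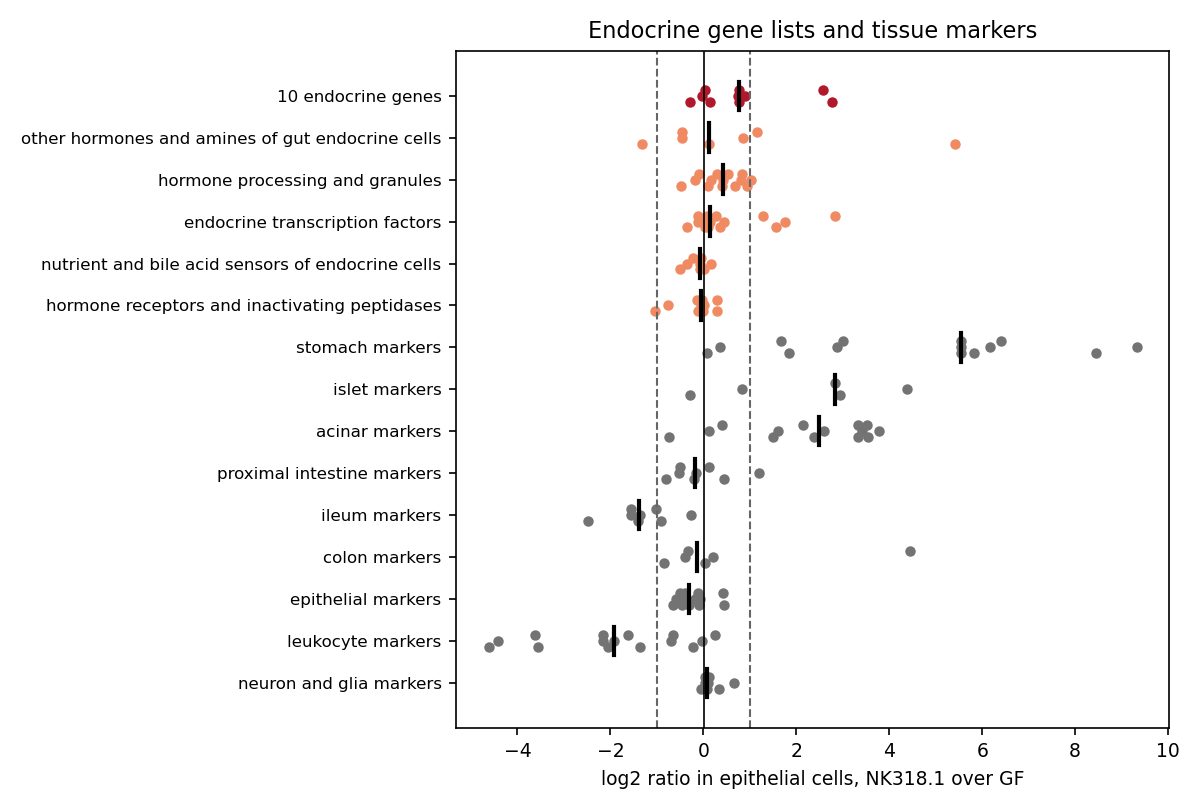
Log2 signal ratio in epithelial cells, colonized (NK318.1) over GF, of each measured gene of the endocrine lists (red, the 10 genes described here; orange, other endocrine lists) and of tissue markers (grey), 1 array per group. Black bars are list medians, the thin line is the median of all measured genes (0.02) and dashed lines mark 2-fold. Stomach, islet and acinar markers lie mainly to the right and ileum and leukocyte markers to the left. The 10 genes, at −0.29 to 2.76, overlap the range of every other list shown. They overlap only the lower stomach markers, the upper leukocyte markers and, by 1 gene at a bound, the ileum markers. Gip (2.76) and Ghrl (2.57) lie past the acinar median (2.49).

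No measured Peyer's patch gene on these endocrine lists was 2-fold apart, and the ratios ran from −0.36 (Dpp4) to 0.57 (Ddc). The stomach, islet, acinar and ileum markers likewise had no member 2-fold apart there, and Gast, Gkn1, Gkn2 and Fabp6 were under the floor.

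The genes with the most similar pattern were found as those with the smallest Euclidean distance between centred log2 signals over the 4 arrays, among 14349 other genes. For Gip these were 1810065E05Rik (distance 0.48), Cpa1 (0.78) and Cela1 (0.83), and for Ghrl they were Sult1c2 (0.32), Prss2 (0.34) and Cela3b (0.38). Cpa1, Cela1, Prss2 and Cela3b are acinar enzyme genes. For Sst they were Tcea3 (0.22), Chga (0.26) and Slc4a4 (0.27), and for Gcg Snx7 (0.04), Baiap2l1 (0.10) and Cldn15 (0.11). The distances describe these 4 arrays alone.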

How the data were processed

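The authors deposited a linear MAS5 signal intensity per probe set for 4 Affymetrix arrays, 1 array for each group. No source used here gives the MAS5 version or settings. The deposited values were used without further scaling, and array medians lay between 23.0 and 23.3. Of 45037 probe sets beside 64 controls, 34945 name 1 gene in the platform annotation, 932 name several genes and were left out, and 9160 name none. A lookup of the gene IDs in RefSeq (GRCm38.p6) changed no symbol. Where a gene has several probe sets, the one brightest on average (log2 scale, all arrays) stands for it. Signals were raised to a floor, the 40th percentile of an array (median of the 4), and genes below it on both arrays of a tissue were not measured there. At 1 array per group, ratios were counted against the 2-fold limit of the study's methods, with no test, so a ratio has no error and the number of arrays limits the precision. The adjusted p-value of those methods was not computed.

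Members, gene lists and alternatives were chosen with earlier results of these data known. Genes are named if they are members, 2-fold apart on a list (at most 4 for each list and tissue), the 2 furthest apart where none was, or nearest to a member in pattern. Gast, Ins2, Ppy, Fabp6, Ptprc and Epcam were named whatever their values. Mboat4, Chgb, Dpp4, Pax4, Pax6, Isl1, Insm1, Xist and Eif2s3y are outside this rule, picked once their values were known, and further genes are given by symbol only as being under the floor. Alternatives were median centring, quantile normalization, floors at the 25th and 60th percentile, no floor, averaged probe sets, only specific probe sets and limits of 1.5-fold and 4-fold. Ratios relative to epithelial markers, the other Neurod1 probe set and a group without Sst were added after seeing the data. The counting was tested on simulated data before use. Changes of 4-fold were set there only in genes well above the floor, so the test does not cover signals near it. Python 3.11.15, numpy 2.4.6, pandas 2.3.3 and matplotlib 3.10.9 were used.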

Additional observations from a re-analysis of the deposited data

Results flagged for a closer look

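The ratios of Sst and Gip pointed in opposite directions in the tissues. Sst had a log2 ratio of 0.89 in epithelial cells and −0.24 in Peyer's patch, and Gip 2.76 in epithelial cells and −0.34 or lower in Peyer's patch, a bound because the colonized signal was raised to the floor. The difference between tissues was not tested, since each value rests on 1 array per group, and both Peyer's patch values come from signals of 15.2 to 20.4, close to the floor of 15.5.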

How the results depend on the processing

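No paired analysis was possible because 1 array per group leaves nothing to pair. Gip and Ghrl stayed more than 4-fold higher in epithelial cells under every alternative tried, with log2 ratios of 2.57 to 3.06 and 2.46 to 2.87. Each has 1 probe set and lay above every floor on both epithelial arrays. Only median centring, quantile normalization and the scaling to epithelial markers could therefore move their ratios. Of 81 ratios of the 10 genes recomputed in epithelial cells, 73 kept their sign and their side of 2-fold. Many of these could not change, since all 10 genes lay above every floor there and Neurod1 alone has more than 1 probe set. The ratios that changed did so under quantile normalization, relative to epithelial markers or with the other Neurod1 probe set. The count of 2 genes at least 2-fold higher became 6 at a limit of 1.5-fold and 6 when each ratio was taken relative to epithelial markers, an alternative chosen after seeing the data. With Neurod1 by its other probe set, also chosen after seeing the data, both became 5 and the Neurod1 ratio −0.14. Over all genes, the count at least 2-fold higher in epithelial cells was 365, and 235 with averaged probe sets. The median of the 10 genes in epithelial cells was 0.76, 0.53 with averaged probe sets, 1.06 relative to epithelial markers and 0.45 with the other Neurod1 probe set. In Peyer's patch it was −0.26 over 4 genes, 0.00 with the floor at the 60th percentile, where Sct alone is measured, and −0.13 without a floor, where all 10 are. Of 140 ratios of epithelial cells over Peyer's patch, 138 kept their side of 2-fold, and with the floor at the 60th percentile Ghrl (0.88) and Neurod1 (0.97) in GF mice did not. Signals near the floor limit every Peyer's patch value, and no alternative replaces the missing replicates.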

Other observations

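Sct had the same deposited value, 39.2, on both Peyer's patch arrays, to every digit given. The 2 Peyer's patch arrays share exact values in 310 probe sets, of which 85 lie above the floor, and the epithelial arrays in 82, of which 19 lie above it. Among other secretory cells of the epithelium, Dclk1, a marker of tuft cells, had 108 in colonized and 16.9 in GF epithelial cells (log2 ratio 2.67, other probe sets 0.68 to 1.56), and the Paneth cell protease Mmp7 had 518 and 1633 (−1.66).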
